A study of Mus musculus with 17 samples.

Results

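10 secreted products of fat, Lep, Adipoq, Retn, Cfd, Rbp4, Nrg4, Bmp8b, Fgf21, Nampt and Metrnl, were followed in mouse brown adipose tissue. They were taken by gene symbol from the deposited count table, which held all 10 members among its 21982 genes, and all 10 were among the 12486 genes with enough counts to be tested. The tissue came from 17 C57BL/6 mice, 1 messenger RNA library per mouse, of wild-type or Noct-/- littermates. Noct encodes Nocturnin, a clock-controlled enzyme, and the mice were held singly, without food, for 4 h at room temperature (22 °C) or in the cold (6 °C). The wild types numbered 4 at 22 °C, of which 3 were labelled female, and 5 at 6 °C, of which 4 were. The knockouts numbered 4 at each temperature, in both cases 1 female and 3 males. Labelled ages ran from 11.14 to 23.57 with no unit, while 10 to 20 weeks is the age stated for the series. The labels do not say how the Noct allele was made. All 4 groups were without food, so no fed reference was measured.

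Adipokines are proteins that fat cells release into the blood. Leptin reports the size of the fat stores to the brain, adiponectin raises insulin sensitivity, and both are best known from white fat, although brown adipocytes make adiponectin in quantity. Brown fat releases a further set, often called batokines, which act on the liver (neuregulin 4), on nerves and brain (BMP8B), on metabolism at large (FGF21) and on immune and muscle cells (meteorin-like protein). Cold reaches the brown adipocyte through noradrenaline, beta-adrenergic receptors and cyclic AMP.

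The libraries held 18410748 to 47598200 counts, of which 43.4 to 57.3% fell on mitochondrially encoded genes. Noct itself averaged 140 ± 35.6 CPM (counts relative to library size, scaled by TMM, as mean ± SD, n = 4) in wild types at 22 °C and 346 ± 81.7 (n = 5) at 6 °C. The knockouts averaged 13.2 ± 14.3 (n = 4) at 22 °C and 22.6 ± 4.46 (n = 4) at 6 °C. No knockout library overlapped a wild-type library at the same temperature. Knockout 22 °C replicate 3 held 34.2 CPM, beside 9.71, 5.36 and 3.37 in replicates 1, 2 and 4. Summed markers of brown adipocytes, which include cold-responsive genes such as Ucp1 and Dio2, did not overlap between temperatures, with 5663 to 8175 CPM in the 22 °C libraries and 9386 to 13001 in the cold ones. The 10 markers did not move as a set: 4 rose and 4 fell in wild types, and 4 rose and 3 fell in knockouts. Endothelial markers summed to 402 to 515 CPM in wild types at 22 °C and 513 to 647 in the cold (3 of 8 rose, 1 fell), and to 473 to 505 and 455 to 661 in knockouts (2 rose, 1 fell). Macrophage markers summed to 57.7 to 83.8 and 54.9 to 81.5 CPM in wild types and 52.3 to 60.3 and 63.5 to 103 in knockouts, with 1 of 10 rising in each. The part of these in the members' cold changes was not tested. Neutrophil markers summed to at most 1.24 CPM. Skeletal muscle markers ranged from 0.464 to 842 CPM and varied widely within each group. Liver markers summed to at most 2.40 CPM except in wild-type 6 °C replicate 5, at 33.9. In such bulk tissue fewer cells of a type and less RNA per cell cannot be told apart. "Rose" and "fell" stand for an adjusted p below 0.05 in edgeR's quasi-likelihood test over all tested genes.

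Levels of different genes were compared as RPKM, the deposited counts per gene length and library total. Cfd (mean 363, range 144 to 830 over the 17 libraries) and Adipoq (mean 291, range 172 to 442) were the most abundant members and overlapped each other. They stood at percentiles 99.7 and 99.6 of the tested genes. Nampt (71.6 to 121, mean 89.1) lay wholly below Adipoq. Rbp4 (28.0 to 65.5, mean 41.9) lay wholly below Nampt, and Nrg4 (17.4 to 26.4, mean 21.6) below Rbp4. Retn (7.62 to 24.7, mean 12.96) overlapped Nrg4. The remaining 4, Fgf21 (mean 1.37), Metrnl (1.27), Lep (1.07) and Bmp8b (0.504), overlapped one another and none of them reached the lowest Retn value in any library. All of these low members except Metrnl were also uneven. The highest library exceeded the lowest by 242-fold in CPM for Fgf21, 234-fold for Bmp8b and 176-fold for Lep, against 6.41-fold for Metrnl and 1.61-fold for Nrg4. In the SD of log2(CPM + 1) within groups, Bmp8b, Lep and Fgf21 stood at percentiles 99.5, 99.3 and 99.3 of the tested genes, and Cfd, despite its level, at 98.5. Retn stood at 95.5, Rbp4 at 89.9 and Metrnl at 59.3.

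**Figure D1:**
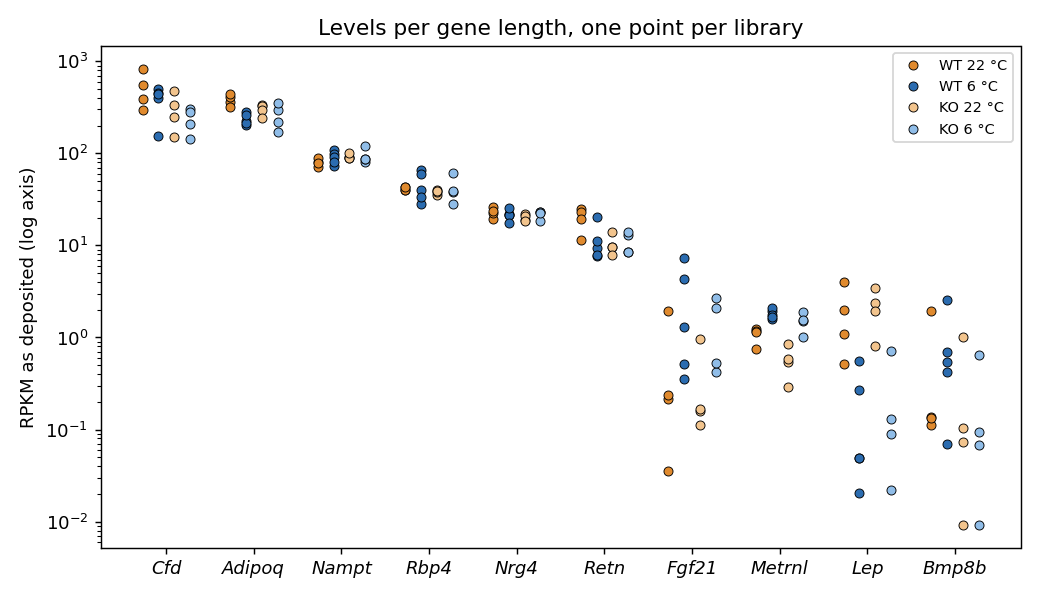
Deposited RPKM (log axis) of the 10 members, ordered by mean, with 1 point per library coloured by group. Cfd and Adipoq lie highest, at 144 to 830, Nampt to Retn between 7.62 and 121, and the 4 lowest members between 0.00921 and 7.37 with wide scatter.

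In the cold, leptin mRNA fell and meteorin-like mRNA rose in both genotypes, and adiponectin mRNA fell modestly in wild types. Of the 10 members, 3 passed the test in wild types (1 rose, 2 fell), where 27.6% of all tested genes did, 14.3% upward and 13.3% downward. In knockouts 2 passed (1 rose, 1 fell), beside 21.6% of all genes, 11.6% upward and 10% downward. Without wild-type 22 °C replicate 2, or wild-type 6 °C replicate 2 or 5, the wild-type number was 5, and without knockout 22 °C replicate 2 or 4, or knockout 6 °C replicate 2, 3 or 4, the knockout number was 1. The share of members that changed was near that of the transcriptome. The median log2 change of the members was 0.20 in wild types and 0.11 in knockouts, and that of all tested genes -0.03 and -0.02. Scaling to library totals in place of TMM shifted the median of all genes by -0.15 in wild types and -0.05 in knockouts, so small changes below are relative to the TMM scale.

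**Figure D2:**
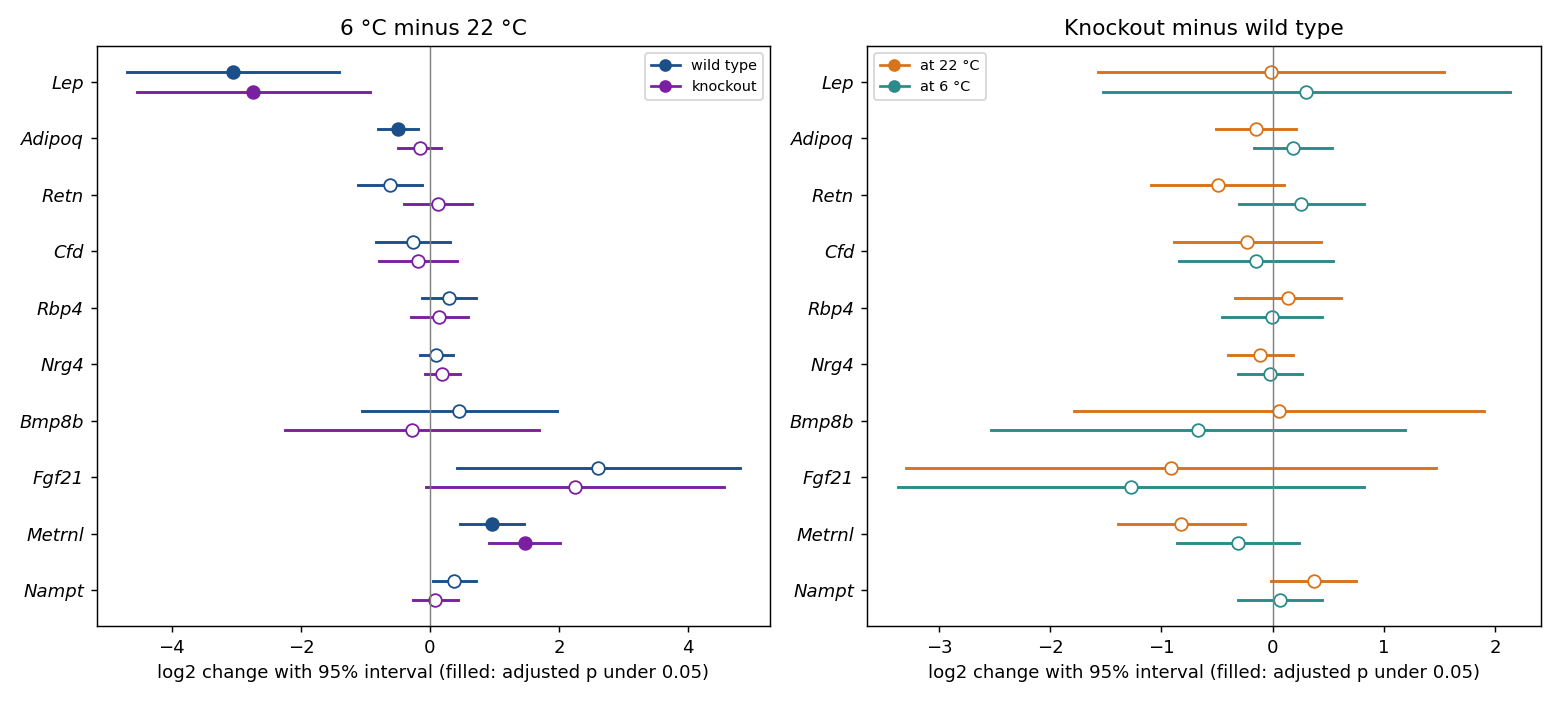
Fitted log2 change with 95% interval for each member, 6 °C minus 22 °C in each genotype (left) and knockout minus wild type at each temperature (right). Filled points, at an adjusted p under 0.05, are Lep and Metrnl in both genotypes and Adipoq in wild types on the left, and none on the right.

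Lep (chromosome 6, 29060220 to 29073877, plus strand, GRCm38) encodes leptin. The CPM values in wild types at 22 °C were 3.19, 12.4, 6.08 and 1.51, and at 6 °C 0.170, 1.95, 0.0776, 0.163 and 0.839. The knockouts gave 2.56, 7.99, 6.19 and 13.6 at 22 °C and 2.47, 0.0773, 0.517 and 0.295 at 6 °C. All but 1 cold library of each genotype lay below 1 CPM and every 22 °C library above it. The cold wild-type replicate 2 exceeded the lowest wild type at 22 °C, whereas the knockout groups did not overlap, by the narrow gap between 2.47 and 2.56. Such separation, in either direction, was seen for 20.2% of all tested genes in knockouts. The group mean of Lep in the cold was 0.111 of that at 22 °C in both genotypes. The fitted change was -3.05 ± 0.78 (SE; 95% interval -4.69 to -1.42, adjusted p = 0.00787) in wild types and -2.73 ± 0.86 (-4.55 to -0.92, adjusted p = 0.0306) in knockouts.

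Lep counts were few in the cold, 2 counts in the lowest library of each genotype. For the wild-type one, the exact 95% interval of counting error ran from 0.00940 to 0.280 CPM. The wild-type call held without any 1 library. The knockout call was lost without knockout 22 °C replicate 2 (-2.74, adjusted p = 0.0542) or 4 (-2.39, 0.0685), without knockout 6 °C replicate 2 (-2.18, 0.0920), 3 (-2.38, 0.0927) or 4 (-2.24, 0.0877), and with labelled age in the model (-2.58, 0.0532). Without knockout 6 °C replicate 1, the high library, the change was -5.01 (adjusted p = 0.000231).

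White adipocyte markers were examined beside Lep, since leptin is chiefly a white fat product. Their sum ranged from 10.3 to 29.9 CPM in wild types at 22 °C, 3.96 to 26.0 in the cold, and 5.83 to 20.8 and 5.14 to 16.4 in the knockouts. Of the 8 markers 4 were abundant enough to test. In wild types 1 of them fell, Slc7a10 (-1.09, adjusted p = 0.0120), and in knockouts none passed. The median log2 change of these 4 was -0.95 in wild types and -0.52 in knockouts. That of all tested genes was -0.03 and -0.02. The part of the white adipocyte markers in the Lep result was not tested. The leptin receptor, Lepr, was below 0.5 CPM on average in every group and passed no test.

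The 250 bases before the RefSeq start are shown for the 2 members that fell in the cold and for Fgf21, whose gene is a known target of the stress factor ATF4. C/EBP proteins, of which Cebpa encodes the adipocyte form, bind TTGCNNAA. CCAAT is the site of nuclear factor Y. ATF4 with a C/EBP partner binds TGATGNAA, cyclic AMP response factors bind TGACG, and helix-loop-helix factors bind CACGTG. Matches on either strand are in capitals, and each window is written 5' to 3' on the gene's own strand (RefSeq, GRCm38.p6).
Lep, chr6:29059971-29060220, plus strand: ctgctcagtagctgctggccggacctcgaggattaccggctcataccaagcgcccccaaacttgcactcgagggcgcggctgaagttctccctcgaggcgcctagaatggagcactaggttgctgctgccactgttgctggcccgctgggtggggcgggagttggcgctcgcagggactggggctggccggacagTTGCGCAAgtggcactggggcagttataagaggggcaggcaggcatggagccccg
Adipoq, chr16:23146286-23146535, plus strand: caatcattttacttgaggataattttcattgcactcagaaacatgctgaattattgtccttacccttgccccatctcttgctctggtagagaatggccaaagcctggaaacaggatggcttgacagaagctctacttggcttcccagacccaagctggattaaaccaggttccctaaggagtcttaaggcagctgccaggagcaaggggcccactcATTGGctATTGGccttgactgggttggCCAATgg
Fgf21, chr7:45615491-45615740, minus strand: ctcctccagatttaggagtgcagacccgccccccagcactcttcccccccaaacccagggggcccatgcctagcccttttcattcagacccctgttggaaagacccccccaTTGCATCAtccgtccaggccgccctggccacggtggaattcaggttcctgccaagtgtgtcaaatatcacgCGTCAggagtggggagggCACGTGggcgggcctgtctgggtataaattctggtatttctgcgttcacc
The Lep window holds TTGCGCAA, 55 to 48 bases before the start. The Adipoq window holds CCAAT or its reverse complement 3 times within its last 34 bases. The Fgf21 window holds TTGCATCA, the reverse complement of the ATF4 motif, 139 to 132 bases before the start, CGTCA at 68 to 64 and CACGTG at 50 to 45. TTGCNNAA and TGATGNAA share letters and can overlap. Over 32851 RefSeq promoter windows of the same length, 9.56% hold TTGCNNAA, 33.8% CCAAT, 3.45% TGATGNAA, 17.8% TGACG and 6.02% CACGTG. Among the 10 members, counted per gene, they occur in 2, 3, 2, 3 and 1. Rbp4 entered that count with 2 windows, so the counts per gene and the shares per window have unlike units. These are matches of letters in a window and no record of binding.

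Transcription factors upstream of adipokine genes were read as a list of 14, all tested. In wild types 4 rose and 2 fell, and in knockouts 2 rose and 2 fell, beside 27.6% and 21.6% of all tested genes. Cebpa averaged 257 ± 41.3 CPM in wild types at 22 °C and 62.6 ± 16.6 in the cold, and in knockouts 239 ± 44.9 and 94.3 ± 53.1. It fell by 2.03 ± 0.28 on the log2 scale in wild types (adjusted p = 0.000101) and by 1.34 ± 0.30 in knockouts (0.00419). Srebf1, which drives lipid synthesis genes, fell by 2.16 ± 0.31 (0.000135) and 1.96 ± 0.33 (0.000624). Ppargc1a, the coactivator of thermogenic genes, rose by 2.86 ± 0.35 (3.96e-05) and 3.37 ± 0.35 (1.89e-05).

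Adipoq (chromosome 16, 23146536 to 23158028, plus strand) encodes adiponectin. In wild types its CPM was 431, 403, 511 and 540 at 22 °C and 403, 323, 315, 296 and 336 at 6 °C. In knockouts it was 442, 458, 391 and 389 at 22 °C and 310, 428, 285 and 479 at 6 °C. The wild-type groups met only at 403 CPM, the lowest 22 °C library and the highest cold one. They did not overlap in RPKM, which are scaled to library totals, a scaling that lowered the median wild-type change of all genes by 0.15. The share of all genes separated in RPKM was not computed. The cold knockouts were split, with 2 libraries below and 2 within or above the range at 22 °C. Adiponectin mRNA fell by 0.50 ± 0.15 on the log2 scale in wild types (adjusted p = 0.0189), a mean of 0.710 of the 22 °C level. In knockouts the change was -0.16 ± 0.16 (95% interval -0.49 to 0.17, adjusted p = 0.523). The difference between the genotypes' cold changes was 0.34 ± 0.22 (adjusted p = 1), so a different response was not shown. The wild-type call was lost on leaving out replicate 3 at 22 °C (-0.45, adjusted p = 0.0646) or replicate 4 there (-0.41, 0.0804).

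Adiponectin is folded and joined into multimers in the endoplasmic reticulum. Of 10 genes for folding and secretion, all tested, 3 rose and 1 fell in wild types, and 2 rose and 1 fell in knockouts. The shares of all tested genes that passed were 27.6% and 21.6%. Dnajb9, a co-chaperone of that compartment, averaged 66.1 ± 10.5 CPM at 22 °C and 139 ± 43.9 in the cold in wild types (1.09 ± 0.19, adjusted p = 0.000603), and 49.1 ± 2.23 and 126 ± 24.5 in knockouts (1.35 ± 0.20, 0.000226). Hspa5, the chaperone BiP, rose by 0.73 ± 0.17 (0.00393) and 0.60 ± 0.17 (0.0197). The call of Hspa5 in knockouts was lost in the compared groups alone (adjusted p = 0.0559) and without any single one of knockout 22 °C replicates 1 to 3 or knockout 6 °C replicates 2 and 3 (0.0527 to 0.0668). Pdia4, a disulfide isomerase, fell by 0.66 ± 0.13 (0.00162) and 0.79 ± 0.14 (0.000893). Of the receptors, Adipor1 did not pass (0.06 ± 0.10 in knockouts, at 94.8 to 98.9 CPM in all groups) and Adipor2, named outside the rule after its values were seen, fell in wild types (-0.39 ± 0.11, adjusted p = 0.0135) and gave -0.31 ± 0.11 in knockouts (0.0596). The C1q and TNF related proteins, relatives of adiponectin, had 7 tested genes. In wild types 1 fell, C1qtnf2 (-1.70 ± 0.52, adjusted p = 0.0209), a gene named outside the rule after its values were seen, and in knockouts 1 fell, C1qtnf9. The latter stood at -0.57 ± 0.18 in knockouts (adjusted p = 0.0317) and -0.10 ± 0.18 in wild types (0.694). Its knockout call was lost in the compared groups alone (adjusted p = 0.129), in the majority sex of each genotype (0.188), and without knockout 22 °C replicate 1, 3 or 4 or knockout 6 °C replicate 1 or 4 (0.0503 to 0.101).

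Retn (chromosome 8) encodes resistin, a cysteine-rich adipokine that in mice comes from fat cells. Its CPM in wild types was 34.0, 16.6, 33.3 and 26.8 at 22 °C and 15.4, 12.5, 13.9, 17.6 and 30.6 at 6 °C. In knockouts it was 14.3, 22.6, 14.2 and 14.6 at 22 °C and 21.3, 13.96, 15.9 and 22.2 at 6 °C. In wild types 4 of 5 cold libraries lay below 18 CPM, as did 22 °C replicate 2 at 16.6. Cold replicates 4 and 5, at 17.6 and 30.6, lay in the range of 22 °C. In knockouts the groups covered nearly the same span. The wild-type change of -0.62 ± 0.23 missed the threshold (adjusted p = 0.0569), and without wild-type 6 °C replicate 5, the library that also held liver markers, it was -0.87 (adjusted p = 0.00627). It passed as well by the DESeq2 Wald test (-0.62, adjusted p = 0.0334) and with labelled age (0.0244). The same held in the compared groups alone (0.0369) and by limma on RPKM (0.0210). It also passed without wild-type 22 °C replicate 2, knockout 22 °C replicate 1 or 2, or knockout 6 °C replicate 4 (0.0344 to 0.0492). It did not pass with no sex term (0.0759) or in the majority sex (0.0707). Of the 17 fits with 1 library left out, 12 did not pass. Among them were those without wild-type 22 °C replicate 1 (-0.53, 0.146) or 3 (-0.54, 0.151). The knockout change was 0.13 ± 0.25 (adjusted p = 0.774) and the difference between the genotypes' changes 0.75 ± 0.34 (95% interval 0.03 to 1.48, adjusted p = 1).

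Cfd (chromosome 10) encodes adipsin, the complement factor D protease. Its CPM was 669, 252, 323 and 456 in wild types at 22 °C and 485, 150, 474, 370 and 381 at 6 °C, and 412, 314, 218 and 162 in knockouts at 22 °C and 197, 296, 159 and 256 at 6 °C. All pairs of groups overlapped. The cold changes were -0.26 ± 0.27 (adjusted p = 0.512) and -0.18 ± 0.29 (0.724). The lowest wild-type libraries at each temperature, 252 and 150 CPM, were the only labelled males of their groups, and the highest knockout at 22 °C, at 412, its only female. The only female among the cold knockouts, at 197, lay below 2 of the 3 males. Over all libraries the median was 412 CPM in 9 females and 235 in 8 males. The sex term of the model was -0.78 ± 0.25 (male minus female) and did not pass over all genes (adjusted p = 0.589). C3, the complement protein that factor D acts upstream of, was abundant and passed neither cold test (774 and 684 CPM on average in wild types, 644 and 714 in knockouts).

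Rbp4 (chromosome 19) encodes the plasma carrier of retinol. Its wild-type values ran from 45.8 to 51.6 CPM at 22 °C and were 38.5, 53.6, 48.5, 84.7 and 73.2 at 6 °C, and its knockout values ran from 43.5 to 58.5 at 22 °C and were 80.8, 52.3, 43.5 and 49.7 at 6 °C. 3 cold libraries stood above all others, and the changes of 0.29 ± 0.20 (adjusted p = 0.295) and 0.15 ± 0.21 (0.687) did not pass. One of the 3, wild-type replicate 5 at 73.2, was the library with 27.1 CPM of albumin mRNA (Alb), a liver gene that was at most 1.18 CPM elsewhere. The other two had no such signal, and the part of liver RNA in these Rbp4 values was not tested.

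Metrnl (chromosome 11, 121701544 to 121716306, plus strand) encodes meteorin-like protein, a hormone of fat and muscle. In wild types its CPM was 1.72, 1.69, 1.09 and 1.61 at 22 °C and 3.23, 3.47, 3.10, 2.54 and 2.52 at 6 °C. In knockouts it was 1.26, 0.866, 0.879 and 0.541 at 22 °C and 1.64, 3.17, 2.89 and 2.46 at 6 °C. Every cold library of a genotype exceeded every 22 °C library of that genotype. Such separation, in either direction, was seen for 25.8% of all tested genes in wild types and 20.2% in knockouts. The mean rose 1.94-fold in wild types (log2 change 0.96 ± 0.24, 95% interval 0.46 to 1.45, adjusted p = 0.00644) and 2.86-fold in knockouts (1.47 ± 0.26, 0.92 to 2.02, adjusted p = 0.000889). These levels rest on 13 to 112 counts per library. The knockouts at 22 °C were low beside the wild types (-0.82 ± 0.27, adjusted p = 0.998), with 1 knockout library inside the wild-type range. The difference between the cold changes was 0.51 ± 0.35 (adjusted p = 1).

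KIT, a receptor tyrosine kinase, has been described as a receptor of meteorin-like protein, and its mRNA moved the other way. Kit averaged 8.03 ± 3.18 CPM in wild types at 22 °C and 1.81 ± 0.54 in the cold, and 7.81 ± 1.01 and 1.84 ± 0.74 in knockouts. It fell by 2.13 ± 0.28 (adjusted p = 7.2e-05) and 2.10 ± 0.31 (0.000213) on the log2 scale, with no overlap between temperatures in either genotype. Separation in either direction was seen for 25.8% of all tested genes in wild types and 20.2% in knockouts. Kit was the most changed of the 23 tested receptors and binding partners of the members, out of 25 listed. Of these 23, 2 rose and 6 fell in wild types, and 2 rose and 4 fell in knockouts. Over all tested genes 27.6% and 21.6% passed.

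**Figure D3:**
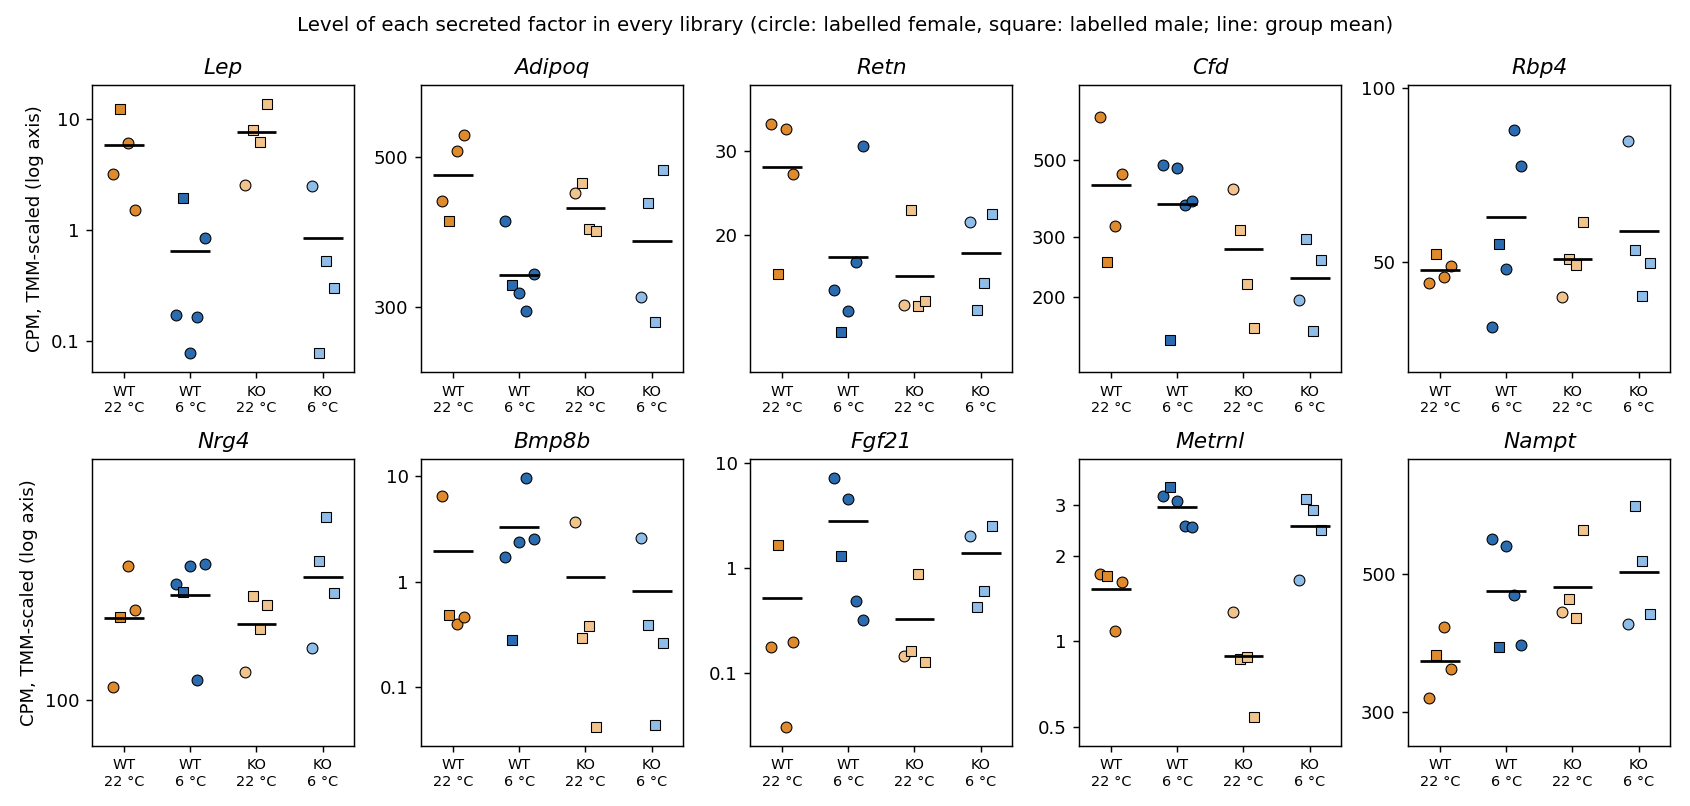
CPM (log axis) of each member in every library, by group, with circles for labelled females, squares for labelled males and lines at the group means. The cold groups sit apart from the 22 °C groups of the same genotype for Metrnl, and Lep sits low in all but 1 cold library of each genotype; in Bmp8b 1 library per group stands far above the rest.

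Fgf21 (chromosome 7, 45613886 to 45615490, minus strand) encodes a hormone best known from the fasted liver that brown fat can also make. Its CPM in wild types was 0.177, 1.67, 0.0302 and 0.197 at 22 °C and 7.31, 1.30, 4.58, 0.488 and 0.318 at 6 °C. In knockouts it was 0.144, 0.160, 0.879 and 0.125 at 22 °C and 2.04, 0.425, 0.604 and 2.53 at 6 °C. The cold groups were high and scattered, and in each genotype 1 library at 22 °C (wild-type replicate 2, knockout replicate 3) reached into the cold range. Of the wild-type cold libraries, 2 held 7.31 and 4.58 CPM and the others at most 1.30. The means were 5.39-fold and 4.28-fold those at 22 °C. The changes of 2.61 ± 1.04 (95% interval 0.42 to 4.80, adjusted p = 0.0697) and 2.25 ± 1.10 (-0.06 to 4.56, adjusted p = 0.160) did not pass the test.

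The Fgf21 value in wild types depended on single libraries. Without wild-type 22 °C replicate 2 it was 4.35 (adjusted p = 0.0124). It also passed without wild-type 6 °C replicate 2 (3.20, 0.0469), 4 (2.86, 0.0458) or 5 (2.88, 0.0452), and without knockout 6 °C replicate 1 (3.07, 0.0463). The same held by the DESeq2 Wald test (3.05, 0.0180) and in the majority sex alone (4.47, 0.0181). Of the 17 fits with 1 library left out, 12 did not pass. Among them were those without wild-type 22 °C replicate 1 (2.25, 0.176) or 3 (2.13, 0.179). By limma on RPKM it did not pass either (1.00, 0.130). The wild-type 6 °C replicate 5, with its liver signal, was the lowest of its group for this gene. The part of liver RNA in the Fgf21 values was not tested. Atf4, whose motif letters stand in the Fgf21 window, was in the list of transcription factors and is named outside the rule after its values were seen. Its mRNA rose by 1.36 ± 0.18 (adjusted p = 7.2e-05) in wild types and 1.72 ± 0.19 (2.18e-05) in knockouts. A part of Atf4 in the Fgf21 values was not tested.

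FGF21 acts through an FGF receptor, chiefly the product of Fgfr1, together with the co-receptor beta-klotho, the product of Klb. Klb averaged 47.8 ± 4.95 CPM in wild types at 22 °C and 26.0 ± 5.94 in the cold, and fell (-0.88 ± 0.18, adjusted p = 0.00154). In knockouts it averaged 43.0 ± 7.06 and 38.7 ± 11.5 (-0.14 ± 0.19, adjusted p = 0.653). The difference between these changes, 0.74 ± 0.26, did not pass over all genes (adjusted p = 1). Fgfr1 fell in both genotypes, by 0.63 ± 0.13 (adjusted p = 0.00218) and 0.43 ± 0.14 (0.0362). The knockout call of Fgfr1 was lost in the compared groups alone (adjusted p = 0.11), in the majority sex (0.0916), with labelled age (0.0583), by limma on RPKM (0.0848), and without wild-type 22 °C replicate 3 or 4, wild-type 6 °C replicate 5, knockout 22 °C replicate 1, 2 or 3, or knockout 6 °C replicate 2 or 3 (0.0586 to 0.139).

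**Figure D4:**
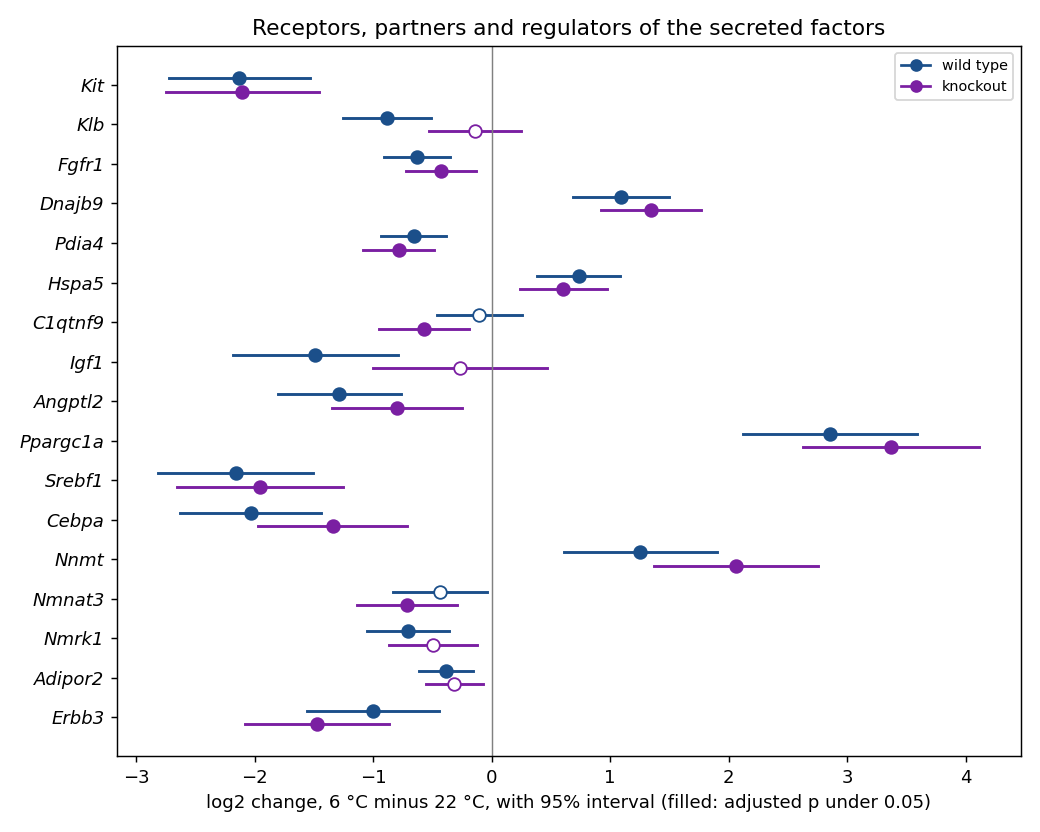
Fitted log2 change in the cold with 95% interval for receptors, partners and regulators of the members, wild type and knockout. Kit, Srebf1 and Cebpa lie at the low end and Ppargc1a and Nnmt at the high end in both genotypes; Klb and Igf1 pass only the wild-type test, and the difference between genotypes was not significant for either. Adipor2 and Erbb3 were added after their values were seen.

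Nrg4 (chromosome 9, 55220222 to 55326844, minus strand) encodes neuregulin 4, which acts on ERBB3 and ERBB4. It was the steadiest member. The CPM was 104, 126, 145 and 128 in wild types at 22 °C, 138, 135, 145, 106 and 146 at 6 °C, 108, 134, 122 and 130 in knockouts at 22 °C and 116, 147, 166 and 135 at 6 °C. The groups overlapped in every comparison. The cold changes were 0.10 ± 0.12 (95% interval -0.16 to 0.36, adjusted p = 0.579) and 0.19 ± 0.13 (-0.08 to 0.46, 0.324), and on the RPKM scale the wild-type value turned to -0.10. Exons of Fbxo22 on the opposite strand overlap Nrg4, and the strand setting of the counting is not given, so reads of the pair may be mixed. Fbxo22 stood at 6.91 to 11.3 CPM. Of the receptor genes, Erbb4 averaged 11.96 to 14.95 CPM over the groups and did not pass. Erbb3, named outside the rule after its values were seen, fell from 3.38 to 1.74 CPM in wild types (-0.998 ± 0.26, adjusted p = 0.00996) and from 3.76 to 1.35 in knockouts (-1.47 ± 0.29, 0.00182).

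Bmp8b (chromosome 4, 123105165 to 123132099, plus strand) encodes a bone morphogenetic protein of mature brown adipocytes. Its CPM in wild types was 6.54, 0.481, 0.393 and 0.460 at 22 °C and 1.70, 0.279, 2.37, 9.75 and 2.52 at 6 °C. In knockouts it was 3.70, 0.289, 0.382 and 0.0416 at 22 °C and 2.57, 0.387, 0.0431 and 0.263 at 6 °C. In each group 1 library stood far above the others, and the temperature groups overlapped. The cold changes were 0.45 ± 0.72 (95% interval -1.06 to 1.96, adjusted p = 0.681) and -0.28 ± 0.93 (-2.24 to 1.69, 0.884), intervals wide enough to hold a sizeable change either way in knockouts.

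The high Bmp8b libraries were all of labelled females. Y-linked genes summed to at least 122 CPM in labelled males. Among labelled females they gave 3.67 and 6.22 CPM in wild-type 6 °C replicates 4 and 5, 4.39 in knockout 22 °C replicate 1, and at most 0.665 elsewhere. The source of these low values was not tested. For Bmp8b the 9 females ran from 0.393 to 9.75 CPM (median 2.52) and the 8 males from 0.0416 to 0.481 (median 0.284). The sex term, examined after the values were seen, was -3.34 ± 0.66 (male minus female) and missed the threshold over all genes (adjusted p = 0.0760), where 0.0641% of genes passed. Wild-type females at 22 °C labelled 11.14 gave 0.393 and 0.460 CPM, and females labelled 11.14 in the other groups gave 1.70, 2.37, 3.70 and 2.57. The highest values, 6.54 and 9.75, came from females labelled 23.57 and 23.00, and a cold wild-type female labelled 20.14 gave 2.52, within the span of those labelled 11.14. Sex and genotype were unequally mixed, and age, sex and group cannot be fully told apart with these numbers. The close relative Bmp8a had 0 to 2 counts per library, and Ppie, which overlaps 1 exon of Bmp8b on the opposite strand, 3.74 to 7.38 CPM. Receptors for such ligands were expressed, with Bmpr1a at 49.9 to 57.2 and Acvr1c at 94.8 to 117 CPM on average, and neither passed a cold test.

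The library highest in Bmp8b was also the lowest in Nrg4 in each of the 4 groups, at 104, 106, 108 and 116 CPM of Nrg4 against next-lowest values of 126, 135, 122 and 135. The deviations of the pair from their group means on the log2(CPM + 1) scale had a Pearson r of -0.82 over the 17 libraries, the most negative of the 45 member pairs. These points share library and depth, and the pattern was noticed in the same data. Labelled sex was not removed from the deviations, and the 4 libraries lowest in Nrg4 were all of labelled females. The part of sex in this correlation was not tested.

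**Figure D5:**
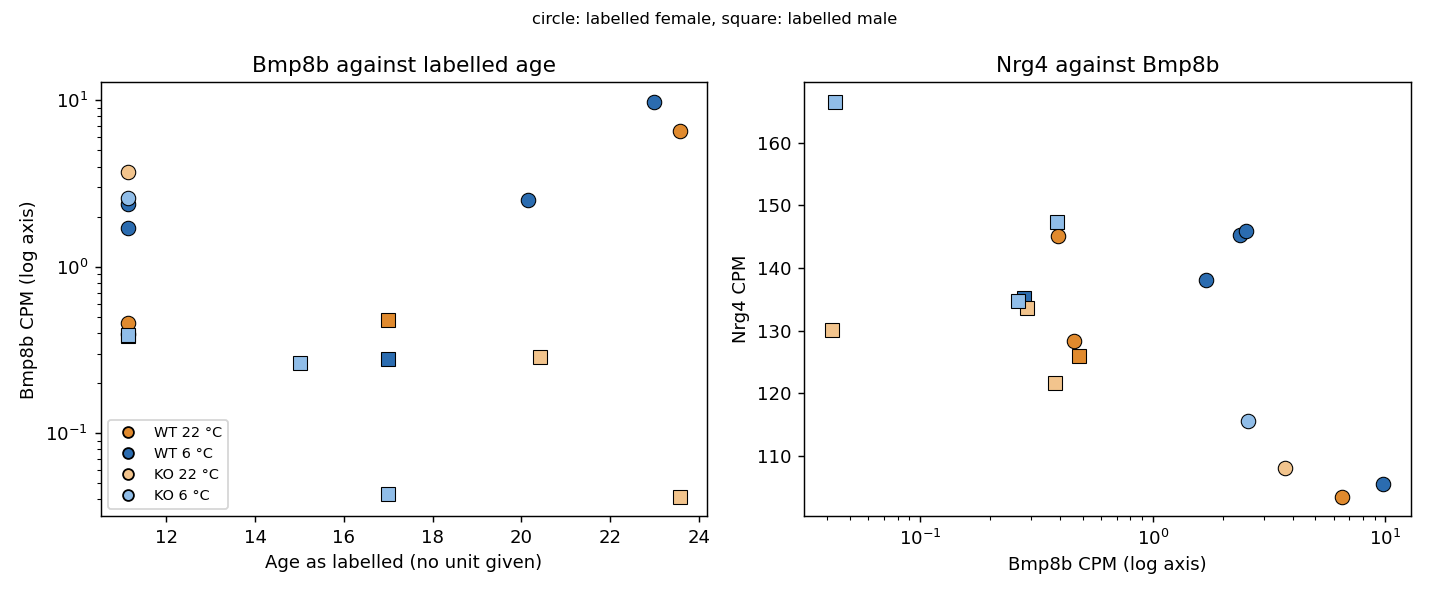
Left, Bmp8b CPM (log axis) against the age as labelled; right, Nrg4 CPM against Bmp8b CPM (log axis); 1 point per library, coloured by group, circles for labelled females and squares for labelled males. Squares stay at or below 0.481 CPM of Bmp8b, and the 4 points lowest in Nrg4, at 104 to 116 CPM, are females with 2.57 CPM of Bmp8b or more.

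Nampt (chromosome 12, 32819545 to 32853349, plus strand) encodes the enzyme that makes nicotinamide mononucleotide, a precursor of NAD, and is also released from fat cells as visfatin. Its CPM was 316, 371, 412 and 352 in wild types at 22 °C, 569, 383, 556, 463 and 385 at 6 °C, 435, 457, 426 and 589 in knockouts at 22 °C and 416, 644, 526 and 432 at 6 °C. Wild types at 22 °C were the low group, and all 4 of their libraries lay below all 4 knockouts at the same temperature in CPM, though not in RPKM. Such separation was seen for 4.22% of tested genes. The change with genotype was 0.37 ± 0.18 (95% interval -0.01 to 0.75, adjusted p = 0.998). The cold changes were 0.38 ± 0.16 in wild types (adjusted p = 0.0838) and 0.08 ± 0.17 in knockouts (0.795). With 1 library left out, the wild-type change passed only without wild-type 6 °C replicate 2 (0.49, adjusted p = 0.0368). Without wild-type 22 °C replicate 1 it was 0.32 (0.203).

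Of 9 tested genes of NAD salvage around Nampt, 1 rose and 1 fell in wild types, and 1 rose and 2 fell in knockouts. Over all tested genes the shares were 27.6% and 21.6%. Nnmt, which methylates and so removes nicotinamide, rose from 16.3 ± 4.75 to 37.4 ± 12.7 CPM in wild types (1.25 ± 0.31, adjusted p = 0.00625) and from 9.88 ± 2.39 to 43.0 ± 19.0 in knockouts (2.06 ± 0.33, 0.000384). Nmrk1, a nicotinamide riboside kinase, fell in wild types (-0.70 ± 0.17, adjusted p = 0.00482) and gave -0.49 in knockouts (0.0538). Nmnat3, the mitochondrial adenylyltransferase, gave -0.43 in wild types (0.0976) and fell in knockouts (-0.71 ± 0.20, adjusted p = 0.0171). The knockout call of Nmnat3 was lost in the compared groups alone (0.0687), in the majority sex (0.0675), and without knockout 22 °C replicate 2 or knockout 6 °C replicate 1, 2 or 3 (0.0512 to 0.0577).

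No member passed the test between knockout and wild type. By edgeR, 0 of 10 passed at 22 °C, 0 at 6 °C and 0 in the difference between the cold responses, where 0.016%, 0.04% and 0.00801% of all tested genes did. At an unadjusted p under 0.05 the numbers were 1 (Metrnl), 0 and 1 (Retn), and the DESeq2 Wald test and limma on RPKM also called 0. The comparisons share their groups, since the same 22 °C and 6 °C libraries enter the cold and the genotype contrasts. The intervals differ widely in what they leave possible. For Nrg4 at 22 °C the 95% interval ran from -0.41 to 0.18, and for Adipoq from -0.51 to 0.21. For Lep it ran from -1.57 to 1.54 and for Fgf21 from -3.30 to 1.47, so sizeable differences in these low genes were not detectable here. No gene of the lists of receptors, folding genes, secreted factors, transcription factors or NAD genes passed in these 3 comparisons.

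Among 33 tested factors secreted by fat beside the members, 5 rose and 4 fell in wild types, and 5 rose and 3 fell in knockouts. These counts stand beside 27.6% and 21.6% of all tested genes. Angptl2, an angiopoietin-like protein, fell by 1.28 ± 0.25 (0.00121) and 0.80 ± 0.26 (0.0355). The knockout call of Angptl2 was lost in the compared groups alone (0.0874), in the majority sex (0.154), and without any single one of knockout 22 °C replicates 1 to 3 or knockout 6 °C replicates 1 to 3 (0.0672 to 0.122). Igf1, insulin-like growth factor 1, averaged 20.4 ± 4.96 and 7.22 ± 2.11 CPM in wild types and fell (-1.49 ± 0.33, adjusted p = 0.00332). In knockouts it averaged 15.2 ± 6.97 and 12.8 ± 6.53 (-0.26 ± 0.35, adjusted p = 0.657), and the difference between these changes was 1.22 ± 0.48 (adjusted p = 1).

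From library to library the members had no direction in common. Of the 45 pairs, the deviations from group means correlated above 0 for 22 and below 0 for 23, over 17 libraries that each enter every pair. Lep and Cfd ran opposite to each other (r = -0.76), as did Rbp4 and Metrnl (-0.69), and Cfd and Bmp8b ran together (0.61). Labelled sex was not removed from these deviations. Its term (male minus female) was 0.91 ± 0.61 for Lep, -0.78 ± 0.25 for Cfd and -3.34 ± 0.66 for Bmp8b. It was -0.15 ± 0.17 for Rbp4 and 0.15 ± 0.20 for Metrnl, and none of these passed over all genes. The part of sex in these correlations was not tested. Outside the members, the genes nearest to each by the same measure were Pxmp2 (r = 0.92) and Isoc2a (0.88) for Adipoq, Mmd (0.85) and Ccser2 (0.85) for Lep, and Apoe (0.90) and Gpx3 (0.86) for Cfd. For Retn they were Nlrc5 (0.81) and Npdc1 (0.72), for Rbp4 Cyfip1 (0.88), and for Nrg4 3110001I22Rik (0.91) and Alg11 (0.88). For Bmp8b they were Lgals9 (0.86) and Fam65b (0.85), for Fgf21 Ifrd1 (0.87) and Slc7a1 (0.85), for Nampt Mtmr1 (0.91) and C330007P06Rik (0.88), and for Metrnl Rpl13a (0.78) and Kctd12 (0.78). These correlations are among the highest of all tested genes with a mean of at least 5 CPM, and are given as descriptions of these libraries.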

How the data were processed

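Brown fat mRNA libraries of 17 mice were read from the deposited tables. The submitters' processing notes name STAR, HTSeq, mm10 and GRCm38.p6, without versions or a strand setting. The deposited count table holds the authors' raw counts per gene symbol. The deposited RPKM table holds the authors' values per gene length and total count: counts divided by RPKM and column total gave 1 length per gene in all libraries, to a relative spread of 3.05e-15. No replicate counts agreed within sampling noise. Reads carry no molecular identifiers, so counting intervals (95%, exact) cover counting error only.

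The counts were fitted in edgeR 4.0.16 (R 4.3.3) after filterByExpr by the 4 groups (12486 genes kept) and TMM scaling, by 1 quasi-likelihood fit of 17 libraries with group means and labelled sex. P values were adjusted by Benjamini-Hochberg over all tested genes (threshold 0.05). Log2 changes are given ± SE, levels as mean ± SD. Replicates are different animals. Alternatives were DESeq2 1.42.0 (size factors; Wald test), no filter, no sex term, sex with labelled age, replicate block, compared groups alone, majority sex, limma 3.58.1 on log2(RPKM + 1), and each library left out. The procedure was tested on simulated counts.

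The members and lists were chosen with earlier results of these data known. Named genes were the members, Noct, up to 3 genes per list with the largest passing cold change and a mean of at least 5 CPM in 1 of the compared groups, and the 2 genes nearest each member; others are marked, beside cell type markers and receptors given as values. Positions are GENCODE vM21 on GRCm38. All per-sample columns were assigned. 2 genes the rule named are not reported here.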

Additional observations from a re-analysis of the deposited data

Results flagged for a closer look

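Of 44 sets of values (the 10 members and Noct in 4 groups), 9 were set apart: 1 library lay farther from its group than the 95% limit of Dixon's test, which chance gives in about 1 of 20 sets of normally distributed values. Low and skewed values such as those of Bmp8b and Fgf21 need not keep that rate, so the number set apart is a description only. 4 of the 9 are Bmp8b, 1 in each group: 6.54 CPM in wild-type 22 °C replicate 1 (others 0.393 to 0.481), 9.75 in wild-type 6 °C replicate 4 (others 0.279 to 2.52), 3.70 in knockout 22 °C replicate 1 (others 0.0416 to 0.382) and 2.57 in knockout 6 °C replicate 1 (others 0.0431 to 0.387). All 4 libraries are of labelled females, and in both knockout groups the only female. The wild-type 6 °C replicate 4 was also low in Nrg4, at 106 CPM (others 135 to 146). Fgf21 stood apart in wild-type 22 °C replicate 2, at 1.67 CPM (others 0.0302 to 0.197), and in knockout 22 °C replicate 3, at 0.879 (others 0.125 to 0.160). Retn stood apart in knockout 22 °C replicate 2, at 22.6 CPM (others 14.2 to 14.6), and in wild-type 6 °C replicate 5, at 30.6 (others 12.5 to 17.6).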

How the results depend on the processing

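With any 1 library left out, the number of members called ran from 2 to 5 in the cold response of wild types and from 1 to 2 in that of knockouts; by the DESeq2 Wald test 5 were called in wild types, and with sex and labelled age 1 in knockouts. The calls of Lep and Metrnl in wild types and of Metrnl in knockouts held under every alternative run. The log2 change of members that did not pass turned sign as follows. By limma on RPKM, Nrg4 in the cold response of wild types was -0.10, Rbp4 at 22 °C (knockout minus wild type) -0.034, Lep at 6 °C -0.24, and the difference between cold responses -0.16 for Lep and 0.024 for Rbp4. In the majority sex, Cfd was 0.034 and Rbp4 -0.12 in the cold response of knockouts, and the difference for Lep -1.58. By the DESeq2 Wald test, Lep was 0.031 and Bmp8b -0.13 at 22 °C. With no sex term, Lep was 0.37 and Bmp8b -0.78 at 22 °C, Nrg4 0.073 at 6 °C, and the differences -0.040 for Lep and -0.094 for Cfd. In the compared groups alone, Rbp4 was -0.044 and Bmp8b -0.010 at 22 °C, and Rbp4 0.15 at 6 °C. With labelled age, Rbp4 was 0.17 and Bmp8b 0.18 at 6 °C, and the difference for Rbp4 0.034. The genotype comparison at each temperature has no value in the majority sex, which differs between the genotypes. The cause of these turns was not tested.

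Leaving out single libraries also turned signs of uncalled values. In the cold response of knockouts the ranges were -0.060 to 0.37 (Retn), -0.51 to 0.10 (Bmp8b), -0.40 to 0.094 (Cfd), -0.62 to 0.054 (Igf1), -0.070 to 0.26 (Rbp4) and -0.057 to 0.21 (Nampt), and in that of wild types -0.33 to 1.84 (Bmp8b). At 22 °C they were -0.55 to 0.64 (Lep), -1.93 to 1.63 (Fgf21) and -0.38 to 1.24 (Bmp8b). At 6 °C they were -0.35 to 0.13 (Rbp4), -0.12 to 0.22 (Nampt), -0.087 to 0.087 (Nrg4), -0.88 to 0.058 (Bmp8b), -2.42 to 1.13 (Lep) and -0.48 to 0.32 (Cfd). For the difference between cold responses they were -0.17 to 0.39 (Cfd), -1.86 to 0.93 (Lep), -2.27 to 0.74 (Fgf21), -0.38 to 0.029 (Rbp4), -2.13 to 0.075 (Bmp8b) and -0.87 to 0.58 (Noct).

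The labels do not say whether shared replicate numbers pair the animals. Same-numbered libraries correlated from -0.43 to 0.51, and 3 of 17 libraries matched best with their own number. Correlations over so few libraries cannot settle whether the numbers pair animals. With the replicate number as a block, Rbp4 was 0.24 and Nrg4 0.057 at 6 °C, Adipoq in wild types missed the threshold (-0.49, adjusted p = 0.0593) and Retn passed (-0.88, adjusted p = 0.0147). The block also ended the knockout calls of Hspa5 (0.59, adjusted p = 0.0514), C1qtnf9 (-0.59, 0.0616), Fgfr1 (-0.43, 0.0631) and Angptl2 (-0.85, 0.0591). Of all genes, 2609 in place of 3450 were called in wild types and 2220 in place of 2697 in knockouts. In knockouts 1611 genes were called in the compared groups alone and 1648 in the majority sex. The share of called genes that were higher in the cold was 51.8% in wild types and 53.6% in knockouts by edgeR, and 22.0% and 41.3% by limma on RPKM, which are scaled to library totals. Lep, Fgf21 and Bmp8b had the widest intervals, and their libraries differed within groups by more than counting error.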
